A study of Danio rerio with 5 samples.

Results

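Replicate 2 arrays were set against replicate 1 arrays of the same group in whole zebrafish embryos, to describe how far arrays that carry the same group label lie apart and which genes separate them. The members were 4 of the 5 arrays: replicates 2 and 1 of Bdh2 morphants, and replicates 2 and 1 of control morphants. The remaining array, of Bdh2 morphants with ectopic Bdh2, was left out. All 4 arrays held biotin-labelled total RNA of wild-type embryos at 72 h after fertilization (hpf), injected at the 1- to 2-cell stage with a morpholino (a synthetic antisense oligomer) at 130 µmol/L. Bdh2 morphants received the morpholino against bdh2, a short-chain dehydrogenase gene, and control morphants a control morpholino. The labels say neither how many embryos were pooled, nor what morpholino sequences were used, nor whether the replicate number marks a clutch, a day or an array run. The number is therefore treated here as a label, and p-values measure only the spread between these arrays.

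Blood of the zebrafish embryo arises in a primitive wave that makes circulating red cells and early myeloid cells. Red cells are made under the transcription factors Gata1, Tal1 and Klf1, which switch on globins, the enzymes of heme synthesis and the proteins of the red cell membrane and its skeleton. Myeloid cells are the neutrophils and macrophages of innate immunity. In RNA of whole embryos, a transcript level reflects both how many cells of a type are present and how much RNA each holds, so fewer cells of a type and less RNA per cell cannot be told apart in any of these results.

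The arrays also differed outside the genes. The intensities of a 3′ probe set over a 5′ probe set of the same transcript, a measure of how complete the labelled RNA is, were lower in replicate 2 in both groups. For acta1 the ratio was 3.49 in Bdh2 morphant replicate 2, against 11.8 in replicate 1, and 2.60 in control replicate 2, against 4.28 in replicate 1. For gapdh it was 1.71 against 2.82 in Bdh2 morphants, and 1.5 against 2.68 in controls. Of 18 probe sets for the hybridisation controls bioB, bioC, bioD and cre, 17 were lower in replicate 2 in both groups, with median log2 differences of -0.42 and -0.74 in Bdh2 morphants and controls. All 6 probe sets for the dap labelling control were lower as well, with medians of -1.43 and -2.50. Control probe sets named for lys, phe and thr were mostly lower in both groups, but not all. Exceptions included a lys probe set at 0.58 and -0.62 in Bdh2 morphants and controls, a phe one at 0.51 and -2.13, and a thr one at -0.08 and 0.11. Median intensity ran between 142 and 162 on the 4 arrays, whose trimmed means all lay near 500. A control probe set whose target the tables do not name read 34877 and 25644 in replicate 2 of Bdh2 morphants and controls, against 139 and 129 in replicate 1. These ratios and control signals moved with the replicate number, and their part in the gene differences was not tested.

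Across the 9301 probe sets tested, replicate 2 differed from replicate 1 in both directions. Differences are of log2(intensity + 16), averaged over the Bdh2 morphant pair and the control pair, with replicate 1 subtracted from replicate 2. With limma's moderated test and Benjamini-Hochberg adjustment at 0.05, 68 probe sets were called higher in replicate 2, which is 0.731% of those tested, and 62 were called lower, which is 0.667%. The smallest adjusted p was 0.00768, and 2020 probe sets had an unadjusted p under 0.05. At least 2-fold in the same direction in both groups were 174 probe sets that were higher (1.87%) and 191 that were lower (2.05%). Among the 6336 genes, each represented by its probe set of highest mean, 26 were called higher (0.41%) and 41 lower (0.647%). The 2-fold counts among genes were 70 higher (1.1%) and 125 lower (1.97%). At an unadjusted p under 0.05, 577 genes were higher and 721 lower.

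The pair of Bdh2 morphants was the more unlike. In it 1362 probe sets differed at least 2-fold, against 829 in the pair of controls, and the differences had an SD of 0.73 in Bdh2 morphants and 0.62 in controls. Both pairs had the same sign at 67.6% of probe sets. Over the 9301 probe sets, themselves not independent, the difference in Bdh2 morphants and that in controls correlated at Pearson's r = 0.543 and Spearman's rho = 0.495, and the 2 pairs share no array. The median difference over all tested probe sets was -0.06. In the fits with 1 array left out that follow, the residual error comes from the Bdh2 morphant and control arrays of 1 replicate number. Across probe sets, the Bdh2 minus control difference had an SD of 0.54 in replicate 2 and 0.45 in replicate 1. These fits cannot tell the loss of an array from this change of error. The call counts rest on few arrays: with 1 array left out and no group term, leaving out replicate 1 of Bdh2 morphants gave 1 limma call, and leaving out replicate 1 of controls gave 0, with 1105 and 1081 at an unadjusted p under 0.05. Leaving out replicate 2 gave 203 calls for Bdh2 morphants and 889 for controls.

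**Figure D1:**
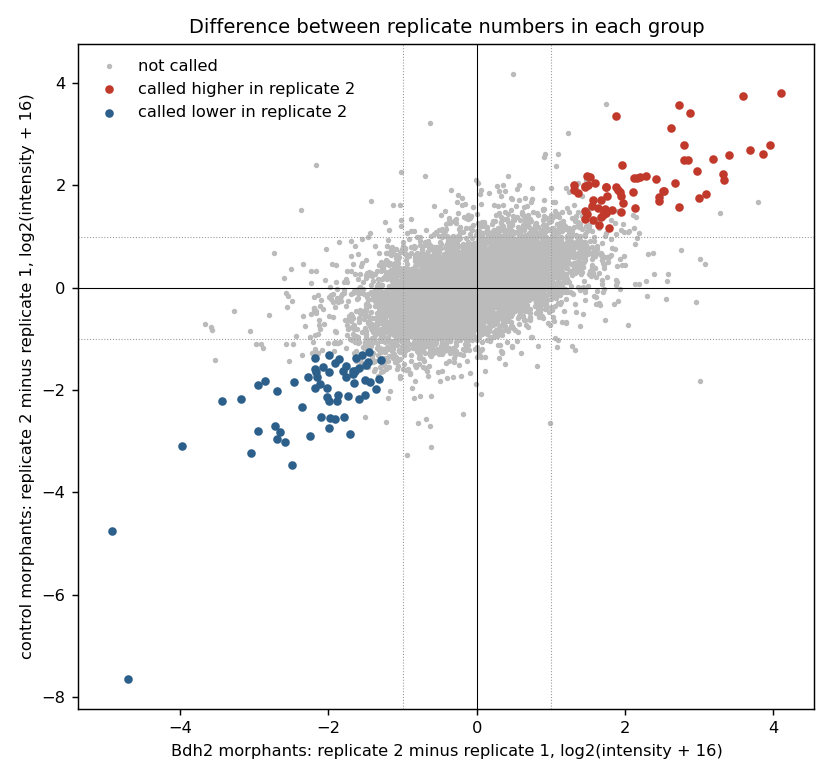
Each point is 1 of 9301 probe sets; the x axis gives replicate 2 minus replicate 1 in Bdh2 morphants and the y axis the same difference in control morphants, both in log2(intensity + 16), with dotted lines at 2-fold. The 68 probe sets called higher lie at the upper right and the 62 called lower at the lower left.

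The red cell genes were lower in replicate 2 in both groups. Of the 21 tested genes for erythroid regulators, enzymes and membrane proteins, 9 fell and none was called higher, where 0.647% of all genes were called lower. The list's median difference was -1.36 (-1.14 in Bdh2 morphants and -1.38 in controls), beside -0.06 over all genes. Its members were lower in both groups in 16 cases and higher in both in 2 cases, where 38% of all genes were lower in both and 29.4% higher in both. The summed intensity of the tested genes was 23088 and 21589 in replicate 2 of Bdh2 morphants and controls, against 36911 and 47360 in replicate 1. A further 2 listed genes on the array, nfe2 and ank1a, did not pass the filter on mean level.

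Among the transcription factors, klf1, which activates adult and embryonic red cell genes, read 55.2 and 90.9 in replicate 2 of Bdh2 morphants and controls, against 536 and 729 in replicate 1. Its log2 difference was -2.88 (limma's moderated SE 0.27, n = 2 pairs, limma adjusted p = 0.0156). The master regulator gata1a read 112 and 147 in replicate 2, against 503 and 704 in replicate 1, a difference of -2.08 (limma adjusted p = 0.0261). Both replicate 2 arrays lay far below both replicate 1 arrays for these genes. Here and for genes below, such separation is in part set by their choice for small p-values or large differences. Its share over all genes was not counted. The blood and vessel factor tal1 also fell, by 1.80, with 54.5 and 53.1 in replicate 2 against 184 and 277 in replicate 1. The call of tal1 (limma adjusted p = 0.0498) was lost in 4 alternative settings with all arrays kept. Its partner lmo2 stood at 82.0 and 120 in replicate 2, against 99.3 and 154 in replicate 1, a difference of -0.28 that did not pass the test. The genes gata1a, tal1, lmo2, dmtn and tmod4 were chosen for mention after their values were seen.

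Several genes of the membrane and its skeleton also fell. For epb41b, which encodes a band 4.1 protein that ties the skeleton to the membrane, intensities were 230 and 256 in replicate 2, against 1579 and 2090 in replicate 1 (difference -2.83, SE 0.24; limma adjusted p = 0.0155). The anion exchanger gene slc4a1a (band 3) read 1459 and 1708 in replicate 2, against 5442 and 7927 in replicate 1, a difference of -2.05. The beta-spectrin gene sptb read 308 and 405, against 1300 and 1623, a difference of -1.99. For none of these genes, picked for small p-values, did the replicate 2 and replicate 1 arrays overlap. The dematin gene dmtn fell by 1.78, and cahz, a carbonic anhydrase of red cells, fell by 2.07. The water channel gene aqp1a.1 had a difference of -0.75 (adjusted p = 0.124) and did not pass, nor did the tropomodulin gene tmod4, at -0.09 (adjusted p = 0.830).

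Of 12 tested genes of heme synthesis and supply, 2 fell, alas2 at the entry step and fech at the exit. Among all genes, 0.647% were called lower. The gene alas2, whose erythroid enzyme makes 5-aminolevulinate, read 439 and 690 in replicate 2 of Bdh2 morphants and controls, against 2849 and 4982 in replicate 1 (difference -2.74, SE 0.22; limma adjusted p = 0.0155). It stands in both the erythroid and the heme list. The ferrochelatase gene fech, which inserts iron, read 27 and 71.7 in replicate 2, against 165 and 240 in replicate 1, a difference of -1.81 (limma adjusted p = 0.0483). Values of fech in replicate 2 lie under the intensity of 94.5 at which genes were filtered on their mean, so the size depends on the constant added before the logarithm. The call of fech was lost with a constant of 1, no filter, no intensity trend, robust moderation or no group term (limma adjusted p between 0.0502 and 0.102), and without Bdh2 morphant replicate 2 or either replicate 1 array (limma adjusted p between 0.1004 and 0.413). Of the steps between, cpox had -0.92 and urod 0.67, while alad and uros, named after their values were seen, had -0.30 and 0.10. At the entry step alas1, the housekeeping isoform, had -0.84. None of these passed. Over the list, 8 were lower in both groups and 3 higher in both, where 38% and 29.4% of all genes were. The list's median was -0.53.

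All 4 globin genes tested were lower in replicate 2 in both groups, and 1 was called. Among all genes, 38% were lower in both groups and 0.647% were called lower. The embryonic beta-globin gene hbbe2 read 2929 and 5181 in replicate 2 of Bdh2 morphants and controls, against 9282 and 18927 in replicate 1, a difference of -1.76 (SE 0.20; limma adjusted p = 0.0207). The most intense globin probe sets moved less: hbbe3 read 26512 and 22461 against 36501 and 37402, and hbae3 read 29022 and 26341 against 40785 and 39125, with differences of -0.60 and -0.53 (adjusted p = 0.140 and 0.155). Globin genes are near-identical copies, so the signal of 1 probe set may come from several. The fourth, hbaa1, read 31.7 and 165 in replicate 2, against 264 and 187 in replicate 1. Its difference of -1.36 came mostly from the Bdh2 morphants.

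Genes of iron transport and storage had a median of -0.10 over 13 tested (-0.17 in Bdh2 morphants and -0.34 in controls), beside -0.06 over all genes. Of them, 6 were lower in both groups and 2 higher in both, where 38% and 29.4% of all genes were. limma called 0 of them. At an unadjusted p under 0.05, 4 were lower and 1 higher, beside 721 lower and 577 higher among all 6336 genes. Ferritin genes had differences of -0.99 for fthl28 and -0.37 for fth1a. The ferritin receptor gene ncoa4 had -0.93, and slc11a2, the iron importer DMT1, -0.64. The gene iscub went the other way, at 1.12. The red cell calls also changed with the settings. Of 21 erythroid genes 9 were called lower with all 4 arrays and between 7 and 13 under the other scalings, constants, filters and moderations. Without Bdh2 morphant replicate 1 or without control replicate 1, limma called 0, and without either replicate 2 array 11 were called.

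**Figure D2:**
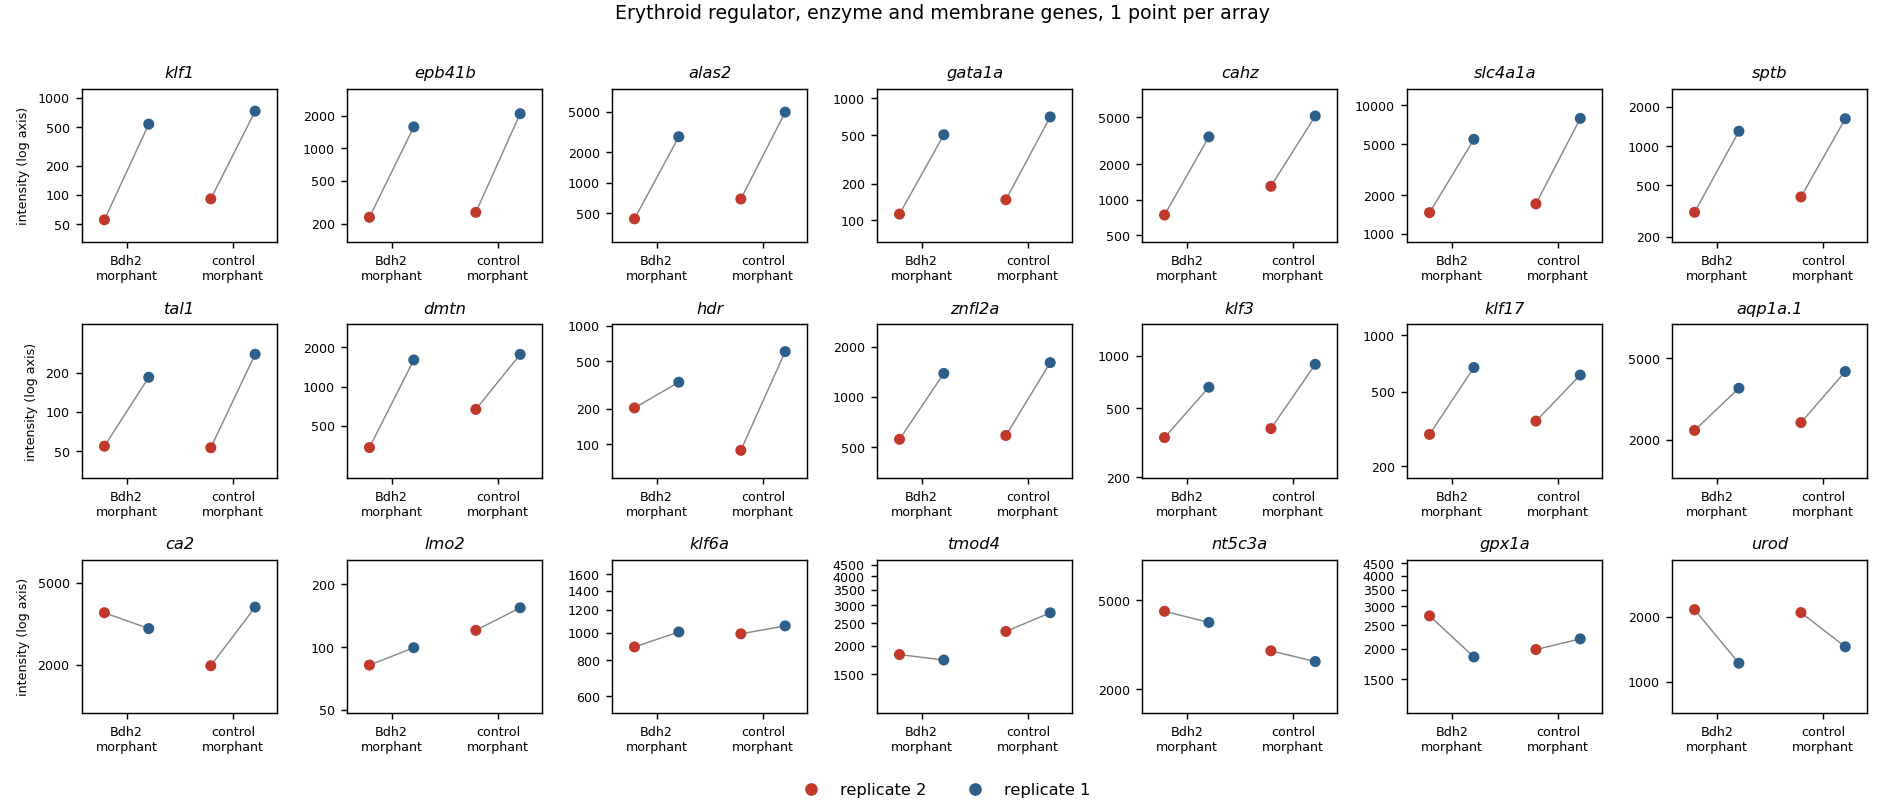
Each panel is 1 of the 21 tested erythroid genes, with intensity on a log axis and 1 point per array, replicate 2 in red left of replicate 1 in blue, joined within Bdh2 morphants and within control morphants. For the 9 called genes, klf1 to dmtn, both red points lie below both blue points, which the call itself favours.

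Most tested genes of neutrophils and macrophages were also lower in replicate 2, though 1 of 16 was called. The myeloperoxidase gene mpx, of neutrophil granules, read 39.96 and 120 in replicate 2 of Bdh2 morphants and controls, against 588 and 609 in replicate 1, a difference of -2.82 (SE 0.36; limma adjusted p = 0.0261). The lysozyme gene lyz read 2209 and 2103, against 4722 and 5599, a difference of -1.25 (adjusted p = 0.0524). The macrophage scavenger receptor gene marco read 40.7 and 46.5, against 273 and 140, a difference of -1.84 (adjusted p = 0.0636). In each of these genes, picked for small p-values, the replicate numbers did not overlap. The actin-binding gene coro1a had -1.48, and the chemokine receptor gene cxcr4b -1.14. Over the list, 6 genes were at least 2-fold lower in both groups, 11 were lower in both and 1 was higher in both. The matching shares of all genes were 1.97%, 38% and 29.4%, and 0.647% of all genes were called lower. The 16 myeloid genes had a median of -1.01 (-1.16 in Bdh2 morphants and -0.78 in controls). Their summed intensity was 4732 and 5508 in replicate 2, against 9876 and 10973 in replicate 1. The list has 23 genes on the array. Of those that did not pass the filter, csf1ra, ptprc, grna and grna.1 were lower in both groups, and ncf1 and runx1 were mixed. The gene cebp1, named after its values were seen, was higher in both. It read 94.3 and 88.1 in replicate 2 of Bdh2 morphants and controls, against 41.6 and 38.5 in replicate 1. Markers of thymus and lymphoid cells could not be described, since 3 of 13 are on the array and 0 passed the filter. The complement gene cfp (properdin, which stabilises the alternative pathway convertase) fell, with 71.9 and 107 in replicate 2 against 665 and 442 in replicate 1, a difference of -2.43. Complement genes as a list were not lower: 0 of 13 were called, and the median was 0.23 (-0.28 in Bdh2 morphants and 0.28 in controls). In that list 5 were higher in both groups and 2 lower in both, and cfd, of the same pathway, rose by 2.72.

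A cortisol-responsive gene was among the lowest. The gene fkbp5, a co-chaperone of the glucocorticoid receptor that is itself induced by glucocorticoids, read 55.0 and 172 in replicate 2 of Bdh2 morphants and controls, against 451 and 1205 in replicate 1 (difference -2.71, SE 0.26; limma adjusted p = 0.0171). The steroidogenic enzyme gene cyp17a1 read 207 in replicate 2 of both groups, against 675 and 581 in replicate 1, a difference of -1.53 that just missed the threshold (adjusted p = 0.0507). Other genes of the axis had larger differences in Bdh2 morphants than in controls, which was not tested. The target gene klf9 read 40.6 in Bdh2 morphant replicate 2, against 377 in replicate 1, but 377 in control replicate 2, against 553 in replicate 1. For foxo3b the Bdh2 morphants had 393 against 1706, and the controls 1057 against 1416. The receptor gene nr3c1 had a difference of -0.70, and hsd11b2, which inactivates cortisol, -1.06. Of 11 tested genes, 1 fell, 8 were lower in both groups and 1 was higher in both, with a median of -0.70. Among all genes, 0.647% were called lower, 38% were lower in both groups and 29.4% higher in both.

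Of 32 tested chaperone genes, 1 fell, where 0.647% of all genes were called lower. The DnaJ co-chaperone gene dnaja1 read 99.6 and 85.2 in replicate 2, against 487 and 355 in replicate 1, a difference of -2.0 (limma adjusted p = 0.0322). The gene hspa5, for the chaperone BiP, read 1073 and 1651, against 3952 and 3519 (difference -1.47, adjusted p = 0.0596), and the collagen chaperone gene serpinh1b read 847 and 540, against 1917 and 2230 (difference -1.59, adjusted p = 0.0587), and neither passed. These 3 genes, picked for small p-values, did not overlap between the replicate numbers. Over the list the median was -0.16, with 4 at least 2-fold lower in both groups, where 1.97% of all genes were. In the list for stress of the endoplasmic reticulum and of amino acid supply, mthfd2, a mitochondrial folate enzyme, fell by 1.93, with 507 and 503 in replicate 2 against 1736 and 2221 in replicate 1. The disulfide isomerase gene pdia4 had -1.28 and the transcription factor gene atf4b -1.0. That list had a median of -0.29 over 30 genes, 1 of them called, where 0.647% of all genes were called lower.

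In the hypoxia and glycolysis list, 2 of 41 genes fell, where 0.647% of all genes were called lower, and the median was 0.02. The gene hif1al2, named for its likeness to the alpha subunit of HIF-1, read 61.4 and 53 in replicate 2, against 351 and 500 in replicate 1, a difference of -2.57. The phosphofructokinase-2 family gene pfkfb4b read 600 and 646, against 1681 and 1786, a difference of -1.45 (limma adjusted p = 0.0451). The glycolytic gene pgk1 had a difference of -1.08 and did not pass, while pklr, the pyruvate kinase of liver and red cells, stood at 912 and 594 in replicate 2, against 191 and 293 in replicate 1, a difference of 1.57 (adjusted p = 0.0844).

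Cartilage, bone and connective matrix genes leaned low with 0 calls by limma. Lower at an unadjusted p under 0.05 were 11 of 23, where 721 of all 6336 genes were. A further probe set of the chondromodulin gene cnmd was called, at 259 and 560 in replicate 2 against 1207 and 1904 in replicate 1 (difference -1.95, limma adjusted p = 0.0261), while the probe set that stands for the gene had -1.12 (adjusted p = 0.0730). Of 23 tested, 17 were lower in replicate 2 in both groups and 0 higher in both, and the median was -0.46 (-0.62 in Bdh2 morphants and -0.44 in controls). The list has 31 genes on the array. Of those that did not pass the filter, matn1 and runx2b were higher in both groups, ucmaa was lower in both, and the others were mixed. The gene matn1, named after its values were seen, read 49.1 and 733 in replicate 2 of Bdh2 morphants and controls, against 11.5 and 44.3 in replicate 1. The cartilage collagen gene col2a1a read 3318 and 5945 in replicate 2, against 9020 and 10055 in replicate 1, a difference of -1.10 (adjusted p = 0.0844). The chondrocyte transcription factor gene sox9b read 977 and 1019, against 2078 and 2231, a difference of -1.10 (adjusted p = 0.0718). For both genes, picked for small p-values, the replicate numbers did not overlap. The fin-fold gene and3 (actinodin) fell by 2.24, with 228 and 400 in replicate 2 against 902 and 2438 in replicate 1. It belongs to the epidermis list, where 1 of 44 genes was called and the median was -0.27. Among all genes, 0.647% were called lower.

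Neuronal genes showed the same lean. Of 27 tested, 17 were lower in both groups, and 0 higher in both, with medians of -0.65 in Bdh2 morphants and -0.13 in controls. limma called 0, and 6 were lower at an unadjusted p under 0.05, where 721 of all 6336 genes were. The axonal microtubule gene stmn1b read 761 and 1845 in replicate 2, against 1537 and 3703 in replicate 1, which is -1.0 in each group. The neuronal RNA-binding gene elavl3 read 1875 and 2816, against 4790 and 3984. Replicate numbers of stmn1b overlapped across groups, since control replicate 2 lay above Bdh2 morphant replicate 1. The glial and progenitor receptor gene notch3 fell by 2.16, with 83.1 and 147 in replicate 2 against 533 and 571 in replicate 1, and the brain proteoglycan gene ncana fell by 2.35. In the list that holds notch3, of neural progenitors and glia, 1 of 29 genes was called, where 0.647% of all genes were called lower. The list's median was -0.20. There 15 were lower in both groups and 8 higher in both.

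All 5 lens genes tested were lower in replicate 2 in both groups, and 1 of them was called. Among all genes, 38% were lower in both groups and 0.647% were called lower. The lens beaded-filament gene bfsp2 read 54.8 and 114, against 267 and 847, a difference of -2.37 (limma adjusted p = 0.0261). The crystallin genes crybb1, crygmxl2 and cryba4 had differences of -1.72, -1.13 and -0.70, larger in controls than in Bdh2 morphants. Heart muscle genes had a median of -0.67 over 9 genes with 6 lower in both groups, and islet and pituitary genes -0.54 over 12 genes with 9 lower in both. limma called 0 of either list, and 5 heart genes and 4 islet and pituitary genes were lower at an unadjusted p under 0.05. The same held for 721 of all 6336 genes.

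The lowest genes outside these lists had varied functions. The lactase-like gene lctla read 21.6 and 50.9 in replicate 2, against 293 and 613 in replicate 1, a difference of -3.14 (SE 0.28; limma adjusted p = 0.0155). The gene pigp, for a subunit of the enzyme that starts glycosylphosphatidylinositol anchors, read 47.6 and 14.6, against 342 and 323, a difference of -2.98. The cell surface glycoprotein gene thy1 read 295 and 733, against 2791 and 3346, a difference of -2.67. The rhotekin family gene rtkn2 and the short-chain dehydrogenase gene sdr16c5b fell by 2.31 and 2.29. Among probe sets with no gene symbol, the lowest read 69.3 and 98.5 in replicate 2 against 2207 and 22745 in replicate 1, and the next 25.7 and 37.0 against 1250 and 1405.

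Of the 26 genes called higher in replicate 2, 5 belonged to a list, and of the 41 called lower, 20 did. Of all 6336 tested genes, 1089 belonged to a list. The top gene, ppp1r14ab, encodes a member of a family that inhibits protein phosphatase 1. It read 674 and 485 in replicate 2 of Bdh2 morphants and controls, against 40.9 and 21.2 in replicate 1, a difference of 3.67 (SE 0.27; limma adjusted p = 0.0155). The vesicle-tethering gene trappc4 read 660 and 424, against 36.5 and 51.8, a difference of 3.19. The complement factor D gene cfd, the protease that starts the alternative pathway, read 2050 and 868, against 188 and 190, a difference of 2.72. Each of these, picked for a large called difference, had both replicate 2 arrays far above both replicate 1 arrays. The recombination gene swi5, the selenoprotein P gene selenop2 and the deubiquitinase gene usp13 rose by 2.63, 2.38 and 2.28. Of the 15 highest genes, LOC567883, si:dkey-286j15.1, zgc:136864, si:dkey-100n23.3 and zgc:77056 have no functional name in the annotation used. Among probe sets with no symbol, the highest read 519 and 415 in replicate 2 against 15 and 14.8 in replicate 1.

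**Figure D3:**
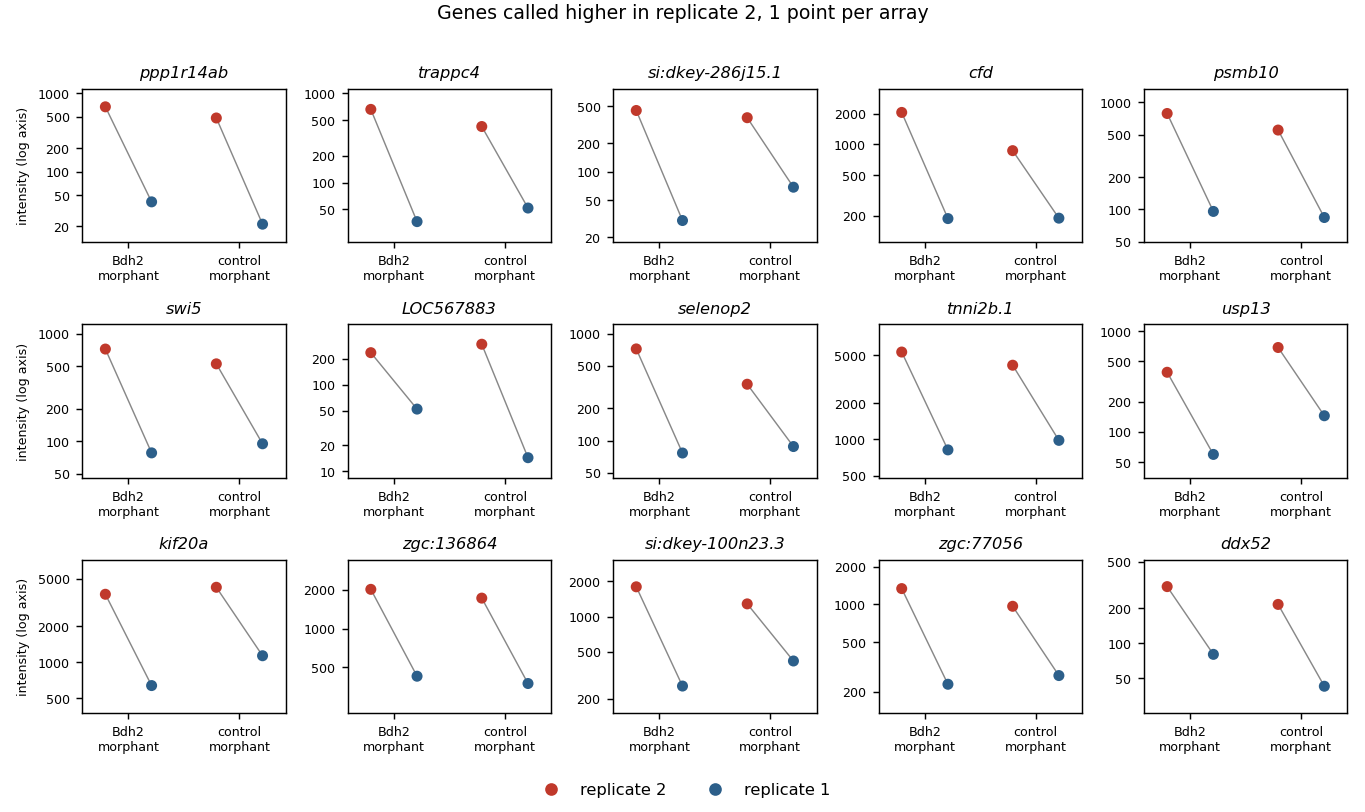
Each panel is 1 of the 15 genes with the highest difference among those called, with intensity on a log axis and 1 point per array, replicate 2 in red left of replicate 1 in blue. In every panel both red points lie above both blue points, as at 674 and 485 against 40.9 and 21.2 for ppp1r14ab. The choice of genes by their called differences favours this separation.

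The proteasome list was higher through small differences. Of its 41 tested genes 1 was called higher, where 0.41% of all genes were. Its called member was psmb10, a catalytic subunit of the immunoproteasome, at 787 and 551 in replicate 2 against 95.7 and 83.9 in replicate 1 (difference 2.68, SE 0.27; limma adjusted p = 0.0171). A further probe set of psmc1b, an ATPase subunit gene, was called at 1.46 (limma adjusted p = 0.0451), while the one that stands for the gene had 0.94 (adjusted p = 0.120). Of the 41 tested subunits, 33 were higher in both groups and 2 lower in both, where 29.4% of all genes were higher in both, and the median was 0.43. The core subunit genes psmb1 and psmb6 had differences of 0.67 and 0.69, from 9089 and 7567 against 5344 and 5057 for psmb1. In the list for antigen presentation, which also holds psmb10, 5 genes were tested and 1 was called higher, where 0.41% of all genes were. There b2m, the light chain of class I molecules, had 1.01 (adjusted p = 0.239).

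Liver and lipid carrier genes were higher in replicate 2, and limma called 0 of 36, with 17 higher at an unadjusted p under 0.05. Among all 6336 genes, 577 were higher at that p. The liver list had a median of 0.71 (1.04 in Bdh2 morphants and 0.37 in controls), with 21 higher in both groups and 0 lower in both. The gap between the groups' medians was not tested. The carboxylesterase genes ces2a and ces3 had the largest differences, 2.73 and 1.47 (limma adjusted p = 0.0587 and 0.0636). For ces2a the intensities were 1911 and 1889 in replicate 2, against 122 and 584 in replicate 1, without overlap. The protease inhibitor gene serpina1l read 6209 and 4054, against 1763 and 2581, and apoa4a, an apolipoprotein gene of gut and yolk, read 1434 and 1028, against 692 and 571. The yolk list had a median of 0.43 over 12 genes, with 7 higher in both groups and 2 lower in both. Its cathepsin gene ctsba missed the threshold at 1.3 (adjusted p = 0.0507).

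Genes of the respiratory chain and hox genes leaned the same way. Of 74 oxidative phosphorylation genes, 42 were higher in both groups and 4 lower in both, with a median of 0.20. limma called 0 of them, and 7 were higher and 1 lower at an unadjusted p under 0.05. Among all 6336 genes, 577 were higher and 721 lower at that p, so the count of 7 lay near the share over all genes. The gene sdhb, for a succinate dehydrogenase subunit, had 0.73. Of 30 hox genes, which set position along the body axis, 19 were higher in both groups and 0 lower in both, with medians of 0.38 in Bdh2 morphants and 0.43 in controls. limma called 0 of these as well, and 6 were higher at an unadjusted p under 0.05. The largest was hoxa9b, at 146 and 284 in replicate 2 against 27.9 and 129 in replicate 1 (difference 1.46, adjusted p = 0.0844), and hoxd10a and hoxa11b had 1.17 and 1.01. Control replicate 1 of hoxa9b lay just under Bdh2 morphant replicate 2.

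Further calls stood in the mitosis, muscle and nucleolar lists. Called higher were 2 of 48, 1 of 35 and 1 of 68 genes, where 0.41% of all genes were. In the mitosis list, kif20a, a kinesin of cell division, rose by 2.2, with 3705 and 4240 in replicate 2 against 638 and 1134 in replicate 1. The gene cdca8, for the chromosomal passenger protein borealin, rose by 1.6. The list's median over 48 genes was -0.07, with 18 higher and 19 lower in both groups. In the skeletal muscle list, the fast troponin I gene tnni2b.1 rose by 2.37, with 5307 and 4125 against 817 and 980, while the median over 35 genes was -0.03. Among nucleolar genes, ddx52, an RNA helicase of ribosome assembly, rose by 1.86, and its probe set carries the suffix that the manufacturer gives to probes shared between transcripts. Of the 68 nucleolar genes, 29 were higher in both groups and 6 lower in both. At an unadjusted p under 0.05, 11 were higher and 2 lower, beside 577 and 721 of all 6336 genes. That list's median was 0.23, from -0.13 in Bdh2 morphants and 0.63 in controls. Cytosolic ribosomal protein genes stood at a median of -0.04. limma called 0 of 74, and 2 were higher at an unadjusted p under 0.05.

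**Figure D4:**
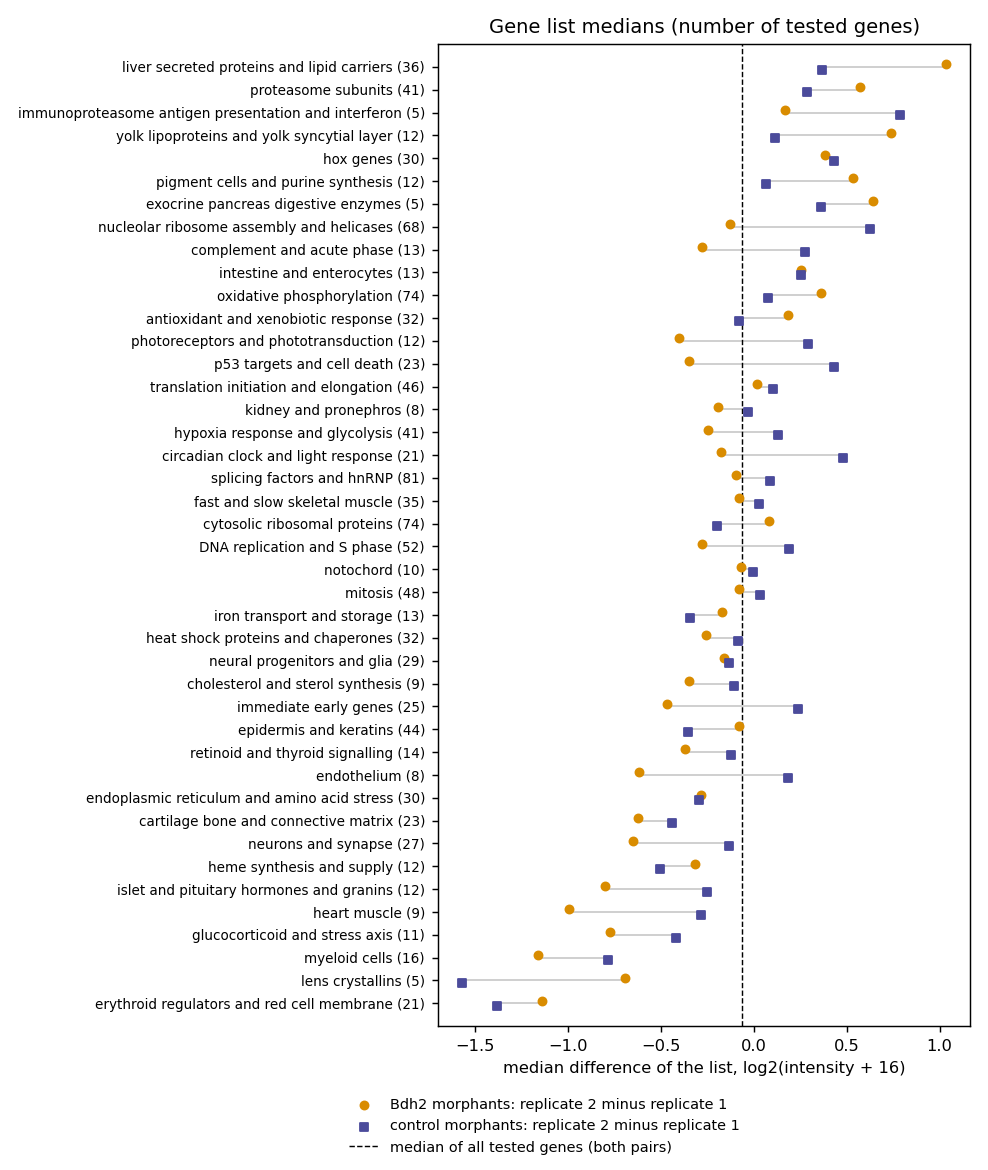
Each row is 1 of the 42 gene lists with at least 5 tested genes; the x axis gives the list's median replicate 2 minus replicate 1 difference in log2(intensity + 16), with circles for Bdh2 morphants and squares for control morphants, and the dashed line marks the median of all genes, -0.06. By the median over both groups, erythroid genes lie lowest, at -1.14 and -1.38, and liver genes highest, at 1.04 and 0.37.

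Some called genes had a further tested probe set. The called probe sets were chosen for their differences, so that a smaller difference at the other is in part set by that choice. Of 49 genes with a probe set called higher, 30 had further tested probe sets, 31 in all, of which 1 was also called, 25 had the same sign and 6 the opposite sign. The median difference was 1.76 for the called and 0.46 for the other probe sets. Of 48 genes called lower, 10 had 12 others, of which 0 were called and 5 had the opposite sign, with medians of -1.66 and -0.32. The genes named in this paragraph were chosen after their values were seen. For calr, a calcium-binding chaperone of the endoplasmic reticulum, the called probe set read 515 and 744 in replicate 2, against 56.4 and 55.3 in replicate 1, and the other read 149 and 246, against 187 and 316. For rad23b, a nucleotide excision repair gene, the called probe set had a difference of 2.17 and the other -0.14. The COP9 signalosome gene cops4 had -3.54 at 1 probe set and 0.82 and 0.42 at the other two. The mitotic gene kif20a itself had -0.28 at its other probe set, so its rise rests on 1 of 2 probe sets. By contrast both probe sets of krt1-19d were called higher, and the keratin gene krt91 had -1.65 and -1.36. The names of the krt91 probe sets differ only in their suffix, and how far they are separate measures was not analysed. The krt91 probe set at -1.36 and the called one of cops4 carry the same suffix as that of ddx52, for probes shared between transcripts.

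Probe set names also split with the direction. The second number of a probe set's name was above 1 in 952 of the 9301 tested (10%). It was above 1 in 23 of 68 called higher (33.8%) and in 3 of 62 called lower (4.84%). These counts take in names that begin with DrAffx, as for pdcl3, called higher, and hbbe2, called lower. In such names the number need not mean the same. What the number stands for, and what these probe sets share in sequence, was not analysed here.

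**Figure D5:**
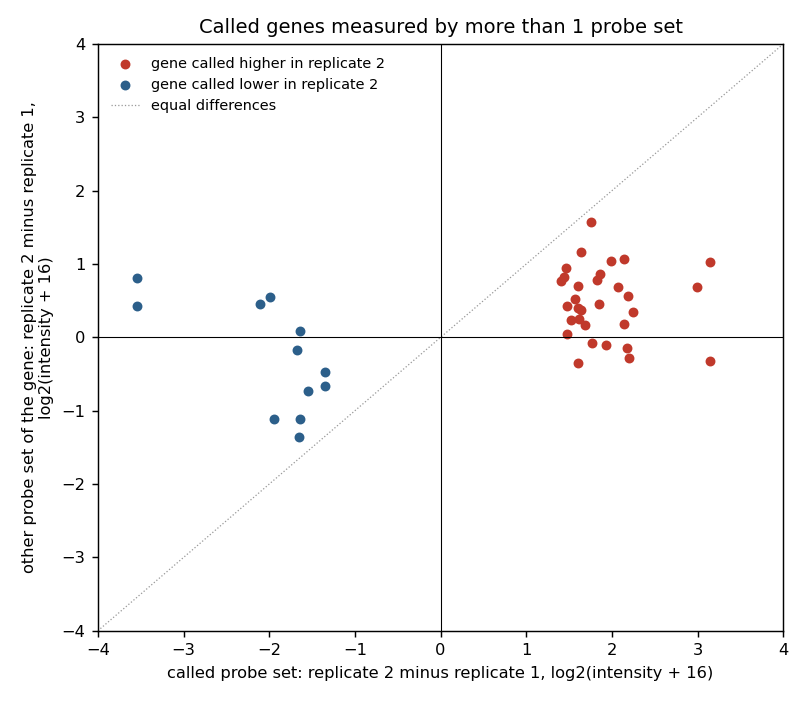
Each point is a further tested probe set of a called gene; the x axis gives the difference of the called probe set and the y axis that of the other, both replicate 2 minus replicate 1 in log2(intensity + 16), with a dotted line where they are equal. The points lie nearer 0 on the y axis than on the x axis, on which they were chosen, with medians of 0.46 against 1.76 for genes called higher.

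Set beside the group difference in the same fit, the replicate number separated more probe sets. Between Bdh2 morphants and controls 1 probe set was called (0.0108%), crx, a retinal homeobox gene, and 77 were at least 2-fold in the same direction within both replicate numbers (0.828%). The corresponding counts for the replicate number were 130 and 365. The difference between these counts was not tested. Of the 130 probe sets that limma called by replicate number, 0 were called by group, where 624 probe sets had an unadjusted p under 0.05. Between replicate numbers crx read 14.1 and 487 in replicate 2 of Bdh2 morphants and controls, against 42.6 and 1081 in replicate 1, which is -1.04 (adjusted p = 0.117). The bipolar cell gene vsx1 read 65.7 and 644, against 110 and 1197, which is -0.75. The targeted gene bdh2 read 643 and 335 in replicate 2, against 235 and 344 in replicate 1. It was 1.39 higher on the log2 scale in replicate 2 of Bdh2 morphants and -0.04 in controls, with a mean of 0.68 (SE 0.38; limma adjusted p = 0.340). The probe set need not record a morpholino that blocks translation, and the labels do not say which kind was used.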

How the data were processed

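Transcript levels were measured on Affymetrix zebrafish arrays, 1 RNA sample per array. The authors deposited 1 intensity per probe set and array, on a linear scale; the submitters' processing notes name Affymetrix Expression Console, while its version, summarisation and scaling were not given in the sources used here. Each of the 4 columns compared had a 2% trimmed mean near 500, as after scaling each array to 1 target.

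Of 15617 probe sets, 115 Affymetrix controls were set aside. Values were taken as log2(intensity + 16), which understates folds of low genes, and 9301 probe sets with a mean above the 40th percentile (intensity 94.5) were tested. Genes were named from the platform annotation: 10795 probe sets had 1 symbol, 135 several and 4572 none. The probe set with the highest mean stood for its gene, giving 6336 genes.

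The 4 arrays were fitted with limma 3.58.1 in R 4.3.3 with terms for group and replicate number and an intensity trend. This leaves 1 residual degree of freedom, to which moderation adds 5.48. Tests were two-sided, with Benjamini-Hochberg adjustment over the probe sets tested. The fit was also run on simulated data, whose outcome is not given here. The simulated errors were independent between probe sets, so shifts shared by many probe sets of an array were not simulated. Standard errors are limma's moderated ones for the mean of 2 pairs, which also draw on the spread of other probe sets. The number of arrays limits the precision.

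Of 46 gene lists, 45 had a tested gene. They are described by counts and medians, with no set test. Named genes are the 15 highest and 15 lowest called, up to 6 members of each list with the smallest p, and bdh2, crx and vsx1; others are said to be chosen later. The comparison, the members and the lists were chosen with earlier results of these data known.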

Additional observations from a re-analysis of the deposited data

Results flagged for a closer look

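The Affymetrix control probe set that stood apart, not among the genes, read 34877 and 25644 in replicate 2 of Bdh2 morphants and controls, against 139 and 129 in replicate 1. What it detects was not analysed here.

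For bdh2, tmod4 and 14 of the 42 gene lists with at least 5 tested genes, the replicate 2 minus replicate 1 difference had opposite signs in Bdh2 morphants and controls, with 1 pair in each, so that the difference between the groups was not tested. For bdh2 it was 1.39 in Bdh2 morphants and -0.036 in controls, and for tmod4 0.078 and -0.27. Lists with a negative median in Bdh2 morphants and a positive one in controls were nucleolar genes (-0.13 and 0.63), p53 targets (-0.35 and 0.43), clock genes (-0.18 and 0.48), endothelium (-0.62 and 0.19), immediate early genes (-0.47 and 0.24), photoreceptors (-0.40 and 0.29), complement (-0.28 and 0.28), DNA replication (-0.28 and 0.19) and hypoxia and glycolysis (-0.25 and 0.13). Muscle (-0.080 and 0.028), mitosis (-0.081 and 0.032) and splicing factors (-0.096 and 0.090) lay nearer 0. Ribosomal protein genes (0.082 and -0.20) and antioxidant genes (0.19 and -0.082) had the reverse order.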

How the results depend on the processing

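With the replicate number as the block, no paired analysis was possible because the replicate number is what is compared. The fit was paired within group instead: the pairs averaged here are arrays of the same group, with group as the block. Probe sets called higher and lower, 68 and 62, numbered 252 and 236 after quantile normalisation, 670 and 559 with each array centred on its median, 37 and 37 with a constant of 1, 108 and 107 with 64, 26 and 26 with no filter, 40 and 41 without the intensity trend, and 222 and 256 at an adjusted p of 0.10. With 1 array left out and no group term they ran from 0 to 379 higher and 0 to 510 lower, with 95 lower without Bdh2 morphant replicate 2. All 130 calls were kept under quantile normalisation, centring and the constant of 64. With all arrays kept, the calls of tal1, dmtn and krt1-19d were each lost in 4 settings. Those of LOC567883, si:dkey-100n23.3, cdca8, ddx52, pfkfb4b, sdr16c5b and selenop2 were each lost in 3. Probe sets at least 2-fold in the same direction in both groups, 174 and 191, numbered 280 higher with no filter, 104 and 109 with the filter at the 60th percentile, and 125 lower with a constant of 64. They numbered 22 and 17 at 4-fold, 560 and 802 in Bdh2 morphants alone and 429 and 400 in controls alone. The median of all probe sets was -0.0011 after centring. Of the genes named, 5 had a reversed sign when 1 array was left out, which unbalances the groups: crx ran to 0.99 and 1.07, vsx1 to 0.76 and 0.89, tmod4 to 0.071 and 0.24, calr to 0.015 and 0.036 at its probe set of highest mean (-0.32 with all arrays; not the one called higher), and lmo2 to 0.0035. Of 42 list medians, between 34 and 42 kept their sign under each alternative, and the exocrine pancreas list had no gene left with the filter at the 60th percentile. The number of arrays limits the precision, and values near the filter intensity of 94.5 limit the folds of low genes.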
